A study of Mus musculus with 27 samples.

Results

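The interferon response and antigen presentation were followed through 42 genes, picked by name from the 21848 genes of a bulk RNA-seq table of mouse liver cultures. The genes comprise 6 transcription regulators, the ubiquitin-like modifier Isg15 with its protease Usp18, 8 genes of RNA binding and sensing, 5 antiviral effectors, 3 other interferon-induced genes, 4 GTPases of the guanylate-binding and immunity-related families, 3 immunoproteasome subunits, 3 genes of peptide transport and loading, 4 class I genes and 4 class II genes. They were read in 27 labelled libraries, in 9 conditions of 3 libraries each.

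The starting point of the cultures was represented by freshly isolated hepatocytes. HepOrgs are organoids grown from such hepatocytes in Matrigel, and at passage 2 they either stayed in HM-Wnt, which supports expansion, or went into MM, a minimal medium, and were collected after 1 week or 2 weeks. Both media carried Wnt conditioned medium and a ROCK inhibitor, and HM-Wnt also carried EGF, HGF, FGF7, FGF10, RSPO1, gastrin, nicotinamide, a GSK3 inhibitor and a TGFβ receptor inhibitor. Assembloids joined 10 HepOrgs with 1000 cholangiocytes and either 250 portal mesenchymal cells (homeostatic) or 2500 (fibrotic-like) per well, and were kept in MM for 1 week or 2.5 weeks. All libraries were labelled wild type on a C57BL/6 background, except replicate 3 of the fresh hepatocytes, whose genotype label reads MDR2-het while its title reads WT; the title was followed. By the study's methods the mice were adult, the cholangiocytes generally came from mice with a nuclear tdTomato reporter, and the mesenchymal cells were sorted by SCA1 and a PDGFRα reporter after removal of cells with CD31, CD45 or CD11b. The labels do not say whether replicates came from separate cultures or animals, and p-values therefore measure the spread between these libraries only.

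Interferons are secreted by infected or stimulated cells and act through receptors and JAK kinases. Type I and type III interferons direct a complex of Stat2 and Irf9 to the interferon-stimulated response element, whereas interferon-γ acts mainly through the gamma-activated site. The genes they switch on detect viral RNA, block viral replication, and equip cells to show peptides to T cells, on class I molecules in nearly all cells and on class II molecules mainly in professional antigen-presenting cells. In the liver these are Kupffer cells, dendritic cells, B cells and sinusoidal endothelium, while resting hepatocytes show class I and little class II.

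The libraries held 30289364 to 65345685 counts on genes, with a median of 43727965. Levels are given as CPM, each count scaled to the TMM-adjusted total of its library, with no correction for gene length, so a gene is compared between libraries and never with another gene. A library of homeostatic assembloids at 1 week, replicate 2, stood apart, with a count for 8463 genes against at least 14014 in each of the other 26, with 30 members at 0 and with 989 CPM in 6 summed hepatocyte markers. Replicate 3 of the fibrotic-like assembloids at 1 week had 1600 CPM in that sum, against at least 6670 in the other 25 libraries. Fresh hepatocytes had 64400 to 92900 CPM in the hepatocyte markers and HepOrgs 11800 to 43600, and 6 cholangiocyte markers summed to 11.8 to 139 CPM in fresh hepatocytes and to 3490 to 15000 in HepOrgs, where Spp1 alone held 3430 to 14900 and Krt19, Krt7, Epcam, Sox9 and Cftr at most 36.9 each. Results that rest on a library that stood apart are given with and without it.

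Of the 42 members, 11 had a count in every library and another 26 in every library but 1. B2m, which encodes the light chain of class I molecules, was listed at 0 in all 27 libraries. Its whole span in the annotation (chr2:121977957-121983594, GRCm39) is overlapped by Patl2, and the study's methods do not give the strand setting of the counts. Igtp, an immunity-related GTPase with 93% of its span overlapped, never exceeded 4 counts. Among the further genes listed, Tapbpl, Ifi47, Itgam, Il10rb and Ifnk, overlapped over 91.3% to 100% of their spans, were also at 0 in all 27. Ifit1 and Oas1a, overlapped over 100%, were counted in all libraries but 1. The part of overlap in the values at 0 was not tested. Ciita, the transactivator that switches on class II genes, reached at most 5 counts in any library. Its span is overlapped over 60.1% by Dexi, and the part of that overlap in its low counts was not tested either. B2m, Igtp and Ciita were not tested, nor were H2-Aa and Mx1 among HepOrgs or among assembloids, where their counts were too low. The heat map shows the blocks that the following comparisons take up, which are a set of antiviral genes that was low in fresh hepatocytes, a single HM-Wnt library at 2 weeks with very high levels, class II genes in fresh hepatocytes and H2-Ab1 in HM-Wnt HepOrgs.

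**Figure D1:**
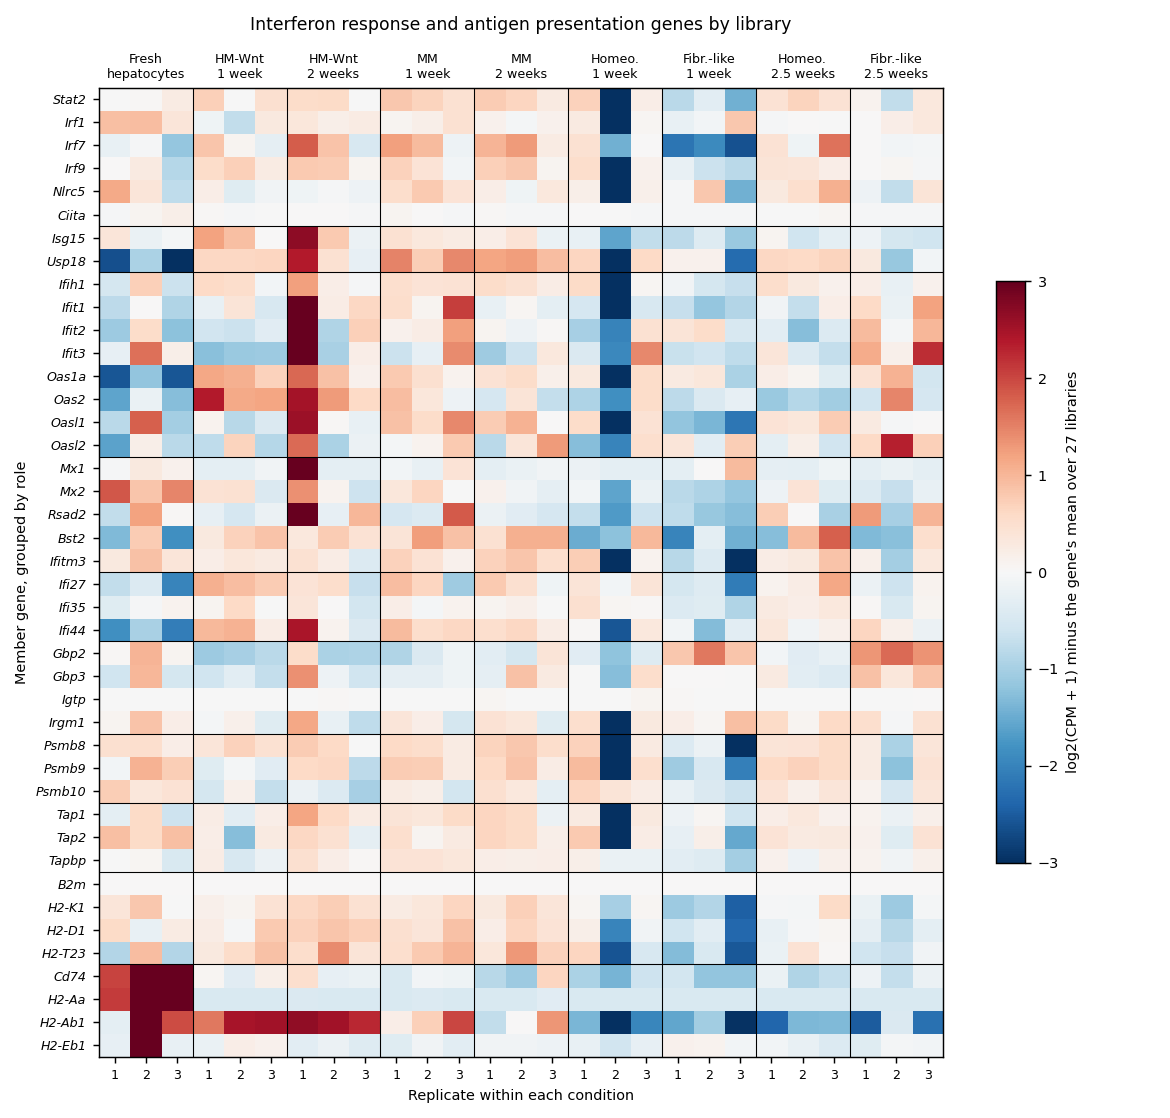
Level of each of the 42 members (rows, ordered by role) in each of the 27 libraries (columns, 3 replicates per condition), as log2(CPM + 1) minus the gene's mean over all libraries, with colours held at 3 units above or below the mean. Cd74 and H2-Aa are high in the 3 fresh hepatocyte libraries, Ifit1, Ifit2, Ifit3, Rsad2 and Mx1 in replicate 1 of HM-Wnt HepOrgs at 2 weeks, and replicate 2 of homeostatic assembloids at 1 week is low in most rows.

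The promoters of the members were searched for 2 motifs, in the 300 bases before the start of the canonical transcript in GENCODE on GRCm39, on both strands. The core of the interferon-stimulated response element, written as TTTC, any 2 bases and TTTC, was present in 11 of 42 members (26.2%) and in 4.08% of 21705 promoters of the same length. It was found in both Isg15 and Usp18, in 4 of 8 genes of RNA binding and sensing, in 2 of 5 antiviral effectors, and in no gene of the immunoproteasome, peptide loading, class I or class II. The gamma-activated site, written TTCNNNGAA, was present in 6 members (14.3%) and in 9.2% of all promoters, and only Bst2 held both motifs, with overlapping matches. The promoters of 6 members are shown because they carry the element and recur in the results below, as the 140 bases before the start, 5′ to 3′ on the strand of the gene, with capitals for each match to the core in either orientation.
Usp18 (chr6:121222717-121222856, plus strand): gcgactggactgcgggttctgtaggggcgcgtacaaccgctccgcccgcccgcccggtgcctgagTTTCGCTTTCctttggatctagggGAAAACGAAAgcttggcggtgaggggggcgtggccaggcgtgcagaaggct
Oas2 (chr5:120887934-120888073, minus strand): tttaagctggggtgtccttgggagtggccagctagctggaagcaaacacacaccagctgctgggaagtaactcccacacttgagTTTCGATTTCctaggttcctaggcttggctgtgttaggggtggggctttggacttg
Isg15 (chr4:156285304-156285443, minus strand): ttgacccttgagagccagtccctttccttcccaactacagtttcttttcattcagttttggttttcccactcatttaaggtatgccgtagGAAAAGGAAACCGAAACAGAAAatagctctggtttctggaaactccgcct
Ifit1 (chr19:34618131-34618270, plus strand): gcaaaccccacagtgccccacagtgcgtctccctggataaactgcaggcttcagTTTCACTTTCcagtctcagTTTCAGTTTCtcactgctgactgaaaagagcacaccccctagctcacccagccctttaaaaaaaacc
Rsad2 (chr12:26506452-26506591, minus strand): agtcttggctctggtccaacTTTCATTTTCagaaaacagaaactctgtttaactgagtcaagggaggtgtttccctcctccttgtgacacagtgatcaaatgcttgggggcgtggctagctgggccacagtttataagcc
Irgm1 (chr11:48762248-48762387, minus strand): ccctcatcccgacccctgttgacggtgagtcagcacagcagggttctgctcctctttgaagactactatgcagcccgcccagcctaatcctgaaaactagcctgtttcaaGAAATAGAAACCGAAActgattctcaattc
Isg15 held 3 overlapping matches, Usp18, Ifit1 and Irgm1 held 2 each, and Oas2 and Rsad2 held 1. Oas1a and Ifi44, which rise beside Usp18 below, had no match to the element in their window, which says only that these letters are not there.

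HepOrgs were first compared with fresh hepatocytes, which asks how the module differed between cells in culture and cells of the liver. The 4 comparisons share the 3 fresh hepatocyte libraries, so their results are not independent of each other. Of 39 members tested with edgeR, 5 were higher and 9 lower in HM-Wnt HepOrgs at 1 week (Benjamini-Hochberg adjusted p under 0.05; 49.7% of all genes tested were past the threshold, 24.9% higher and 24.8% lower). At 2 weeks in HM-Wnt, 9 were higher and 4 lower (51.8% of all genes, 26.1% higher and 25.7% lower). In MM, 3 were higher and 3 lower at 1 week (42.8% of all genes, 21.5% and 21.3%), and 3 were higher and 5 lower at 2 weeks (39.7% of all genes, 19.7% and 20%). The median log2 fold change over the members tested was −0.03, 0.49, 0.33 and 0.14 in these 4 comparisons, and that of all genes lay between −0.01 and 0.03. The members' share past the threshold was thus below that of all genes in each comparison. In HM-Wnt, 5 members were higher in every HepOrg library than in every fresh library and 9 lower at 1 week (28.7% and 25.7% of all genes), and 6 higher and 4 lower at 2 weeks (32% and 28.7%). In MM, 7 were higher and 6 lower without overlap at 1 week (28.1% and 25.7%), and 8 and 5 at 2 weeks (26.8% and 24.7%).

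Usp18, which removes Isg15 from proteins and dampens signalling at the type I receptor (chr6:121222848-121247877), was higher in each kind of HepOrg than in fresh hepatocytes. Its level was 4.4, 16.3 and 3.16 CPM in fresh hepatocytes, 50.1, 50.5 and 50.9 at 1 week in HM-Wnt, 171, 44.6 and 27.1 there at 2 weeks, 91.9, 54.7 and 89.6 in MM HepOrgs at 1 week, and 74.7, 78.6 and 61.9 at 2 weeks. Every HepOrg library was above every fresh hepatocyte library. The log2 fold change was 2.63 ± 0.67 (SE, edgeR adjusted p = 0.00533) and 3.32 ± 0.68 (edgeR adjusted p = 0.00127) in HM-Wnt at 1 and 2 weeks, and 3.28 ± 0.68 (edgeR adjusted p = 0.00194) and 3.15 ± 0.68 (edgeR adjusted p = 0.00257) in MM, with n = 3 libraries in each group here and below. Each of these calls was lost in 1 of 12 alternative settings, and in none that left out a library.

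Oas1a, which makes the 2-5A signal that activates RNase L on double-stranded RNA (chr5:121031070-121046449), showed the same arrangement, with 0.625, 3.2 and 0.608 CPM in fresh hepatocytes and between 9.36 and 30.7 CPM over the 12 HepOrg libraries. Its log2 fold change was 3.6 ± 0.6 and 3.69 ± 0.6 in HM-Wnt (edgeR adjusted p = 0.000297 and 0.000223) and 3.08 ± 0.59 and 2.98 ± 0.59 in MM (edgeR adjusted p = 0.00108 and 0.00139). Ifi44, an interferon-induced protein of the cytoplasm (chr3:151436559-151455625), had 0.869, 2.43 and 0.578 CPM in fresh hepatocytes and between 3.99 and 35.3 in HepOrgs, again without overlap. Its log2 fold change was 3.02 ± 0.74 and 3.56 ± 0.75 in HM-Wnt (edgeR adjusted p = 0.00431 and 0.00153) and 2.95 ± 0.74 and 2.66 ± 0.73 in MM (edgeR adjusted p = 0.00607 and 0.0109). Beside these 3 genes, the related synthetase Oas2 passed the threshold in HM-Wnt, with 0.19, 2.09 and 0.456 CPM in fresh hepatocytes, 17.5, 6.83 and 7.07 at 1 week and 18.9, 7.62 and 4.35 at 2 weeks (log2 fold changes 3.53 ± 0.85 and 3.51 ± 0.85, edgeR adjusted p = 0.00385 and 0.00369). In MM it had 5.75, 3.52 and 2.2 CPM at 1 week and 1.52, 3.61 and 1.18 at 2 weeks and was not past the threshold, but without replicate 2 of the fresh hepatocytes it was (3.55 ± 0.86 and 2.72 ± 0.84, edgeR adjusted p = 0.00567 and 0.0221). Oas1a is covered over its whole span by the neighbouring Oas1d in the annotation, so its reads cannot be told apart from those of its neighbour with certainty.

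**Figure D2:**
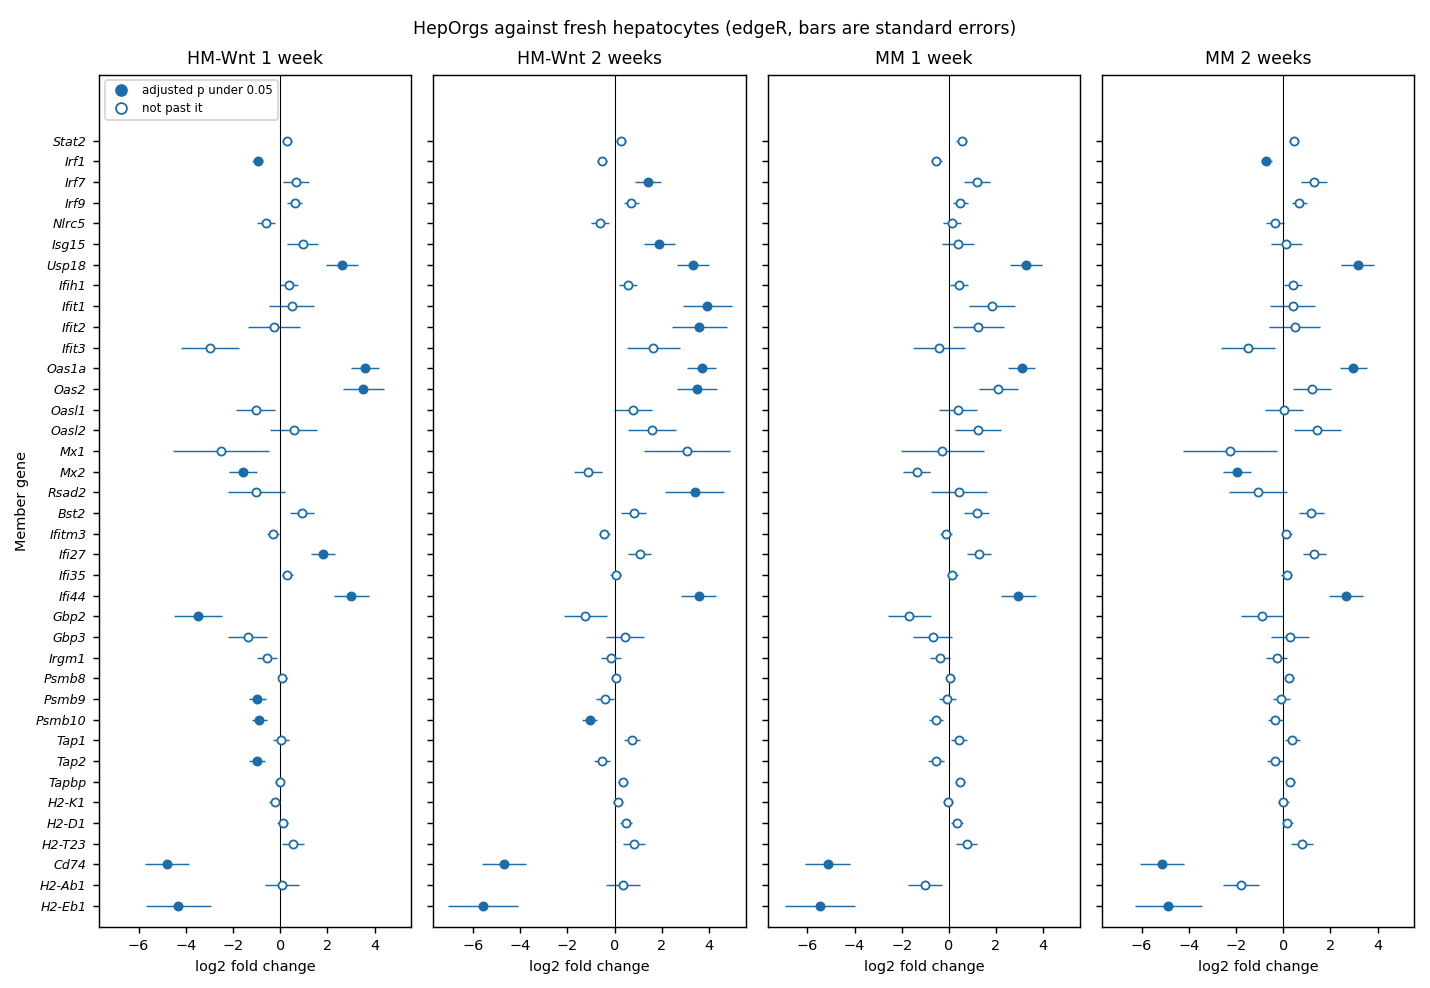
Log2 fold change against fresh hepatocytes (horizontal axis, bars are standard errors) of 38 members tested, in 4 panels for HM-Wnt and MM HepOrgs at 1 and 2 weeks. Filled circles are past an edgeR adjusted p of 0.05; Usp18, Oas1a and Ifi44 lie to the right and Cd74 and H2-Eb1 to the left in each panel, and H2-Aa is left out because its change is a lower bound.

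Within fresh hepatocytes, replicate 2 had the highest level of Usp18, Oas1a, Ifi44 and Oas2. Without it the log2 fold changes grew, to between 3.72 and 4.42 for Usp18 and between 4.23 and 4.93 for Oas1a over the 4 comparisons. Leaving out the fresh library with the highest level of a gene raises its fold change by itself. These values are therefore no added support for a rise, and replicate 2 was not among the libraries that stood apart. The same holds for Irf9, Ifih1, Oasl1, Tap1, H2-T23 and Bst2, also highest in replicate 2, whose values without it follow. The balance of calls also turned towards rises, under the same limit. In HM-Wnt 9 members were then higher and 7 lower at 1 week (24.6% and 23.1% of all genes), and 14 higher and 3 lower at 2 weeks (25.5% and 24.3%). In MM 10 were higher and 2 lower at 1 week (20.8% and 19.9%), and 10 higher and 3 lower at 2 weeks (20.5% and 18.8%). These totals of 16, 17, 12 and 13 stand against 47.7%, 49.8%, 40.7% and 39.2% of all genes. Bst2, which tethers budding virus to the cell surface, was among those added, at 53.6, 233 and 37.2 CPM in fresh hepatocytes and 166 to 326 in HepOrgs. Its log2 fold change was between 0.81 and 1.19 with all libraries, where it was not past the threshold, and between 2.1 and 2.49 without replicate 2.

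Most regulators that carry the interferon signal were not past the threshold. Stat2 lay between 52.5 and 63.3 CPM in fresh hepatocytes and between 52.2 and 94.1 in HepOrgs, and neither Stat2 nor its partner Irf9 was past the threshold in any of the 4 comparisons with all libraries. Without replicate 2 of the fresh hepatocytes Irf9 was higher in HM-Wnt at 1 and 2 weeks and in MM at 2 weeks (0.89, 0.98 and 0.98, edgeR adjusted p = 0.0471, 0.031 and 0.0374). Irf7, the factor that amplifies type I interferon production, was past it in HM-Wnt at 2 weeks only (log2 fold change 1.41 ± 0.55, edgeR adjusted p = 0.0445), on levels of 118, 60.1 and 23.2 CPM against 28.1, 32.2 and 14.1. Those groups overlap, and the call was lost when any of 4 libraries was left out, among them replicate 1 of HM-Wnt at 2 weeks (0.72 without it). Irf1, a factor induced mainly by interferon-γ, was lower, at 45.7, 46 and 31 CPM in fresh hepatocytes and 21.8, 13.8 and 29.3 in HM-Wnt HepOrgs at 1 week, with no overlap (log2 fold change −0.96 ± 0.23, edgeR adjusted p = 0.00404). In MM at 2 weeks Irf1 had 26.1, 23 and 26.4 CPM (−0.72 ± 0.23, edgeR adjusted p = 0.0234), a call that was lost without any of 5 of the 6 libraries compared, its value then lying between −0.75 and −0.6. Nlrc5, the class I transactivator, was not past the threshold in any of the 4 comparisons.

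Not every antiviral gene rose. Mx2, a dynamin-like antiviral GTPase, was lower, at 9.83, 4.3 and 7.2 CPM in fresh hepatocytes against 3.02, 3.08 and 1.21 in HM-Wnt HepOrgs at 1 week (log2 fold change −1.58 ± 0.6, edgeR adjusted p = 0.0409) and 2.25, 1.78 and 1.48 in MM HepOrgs at 2 weeks (−1.97 ± 0.6, edgeR adjusted p = 0.0193). The groups did not overlap in either case, although the first call was lost without any of 5 libraries (−1.78 to −1.24) and the second without MM replicate 2 or 3 or fresh hepatocyte replicate 1 (−1.94 to −1.65). Gbp2, a guanylate-binding GTPase of cell-autonomous immunity (chr3:142326349-142343779), fell from 1.36, 3.67 and 1.46 CPM to 0.087, 0.166 and 0.324 in HM-Wnt HepOrgs at 1 week (−3.47 ± 1.02, edgeR adjusted p = 0.0122). Ifi27, a mitochondrial interferon-induced protein, moved the other way in that comparison, from 111, 141 and 46.3 to 391, 354 and 318 CPM (1.8 ± 0.51, edgeR adjusted p = 0.00995). Gbp3, Irgm1, Ifitm3, Ifi35, Ifih1, Oasl1, Oasl2, Ifit3 and Mx1 were not past the threshold in any of the 4 comparisons with all libraries. Without replicate 2 of the fresh hepatocytes the RNA sensor Ifih1 was higher in each (1, 1.21, 1.07 and 1.06, edgeR adjusted p = 0.0258, 0.00943, 0.0217 and 0.0235). Oasl1 was then higher in HM-Wnt at 2 weeks and MM at 1 week (2.44 and 2.04, edgeR adjusted p = 0.0188 and 0.0462). Without replicate 1 of HM-Wnt at 2 weeks, Irgm1 (−0.93, edgeR adjusted p = 0.0499) and Mx1, at 0 in the other 2 libraries of that group, were lower. Mx2 (−2.18, edgeR adjusted p = 0.00648) and Gbp2 (−3.36, edgeR adjusted p = 0.00891) were then lower at 2 weeks in HM-Wnt as well. The library left out held the highest HepOrg level of Irgm1, Mx1, Mx2 and Gbp2. Leaving it out lowers their fold changes by itself, so these values are no added support for a fall.

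Among the genes that cut, carry and load peptides, 3 fell in at least 1 comparison with all libraries. Psmb10, an inducible catalytic subunit of the immunoproteasome, had 49, 37.2 and 39.5 CPM in fresh hepatocytes. In HM-Wnt it had 19.9, 32.4 and 17.3 CPM at 1 week, then 25.5, 21.6 and 14.1 at 2 weeks, below every fresh library in both cases. Its log2 fold change was −0.89 ± 0.31 (edgeR adjusted p = 0.0283) and −1.06 ± 0.31 (edgeR adjusted p = 0.0113). The first call was lost without HM-Wnt replicate 1 or 3 or fresh hepatocyte replicate 1 or 3 (−0.91 to −0.71) and the second without HM-Wnt replicate 3 (−0.84). Psmb9 (−0.97 ± 0.37, edgeR adjusted p = 0.0454) and the peptide transporter subunit Tap2 (−0.98 ± 0.34, edgeR adjusted p = 0.028) were lower at 1 week in HM-Wnt. The Psmb9 groups overlapped and its call was lost without any of 5 libraries (−1.08 to −0.68), and that of Tap2 without HM-Wnt replicate 2 or fresh hepatocyte replicate 1 or 3 (−0.92 to −0.62). Psmb8, Tap1 and Tapbp were not past the threshold in any of the 4 with all libraries. Without replicate 2 of the fresh hepatocytes Tap1, the other transporter subunit, was higher in HM-Wnt at 2 weeks and in MM at both times (1.22, 0.91 and 0.88, edgeR adjusted p = 0.00647, 0.0336 and 0.0391).

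The class I heavy chains, which hold the peptide at the cell surface, were not past the threshold in any HepOrg. H2-K1 ranged from 1050 to 1870 CPM in fresh hepatocytes and from 1120 to 1760 in HepOrgs, with log2 fold changes of −0.24 to 0.15 (SE 0.22). H2-D1 had log2 fold changes of 0.1 to 0.49 (SE 0.25) and H2-T23, a non-classical class I gene, of 0.55 to 0.82 (SE 0.46). These loci are close copies of one another, so reads may be split between them. H2-T23 differed within fresh hepatocytes, at 103, 363 and 102 CPM, and its log2 fold changes were 1.47 to 1.74 without replicate 2, past the threshold in each comparison.

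Class II genes showed the steepest falls of the module. Cd74, the invariant chain that guards the class II groove until peptide is loaded, had 9.61, 90.2 and 30.4 CPM in fresh hepatocytes and 0.235 to 3.11 in the 12 HepOrg libraries. The log2 fold change was −4.81 ± 0.93 and −4.68 ± 0.92 in HM-Wnt at 1 and 2 weeks and −5.14 ± 0.94 and −5.14 ± 0.95 in MM (edgeR adjusted p = 0.000881, 0.000903, 0.000793 and 0.000863). Without replicate 2 of the fresh hepatocytes the values were −3.66, −3.53, −4 and −3.98, all past the threshold. H2-Aa, the I-A α chain, had 4.89, 36 and 20.2 CPM in fresh hepatocytes and no more than 0.084 in any HepOrg, and taking 3 counts per library as the limit of detection it was at least 221-fold, 263-fold, 306-fold and 260-fold lower (edgeR adjusted p = 3.08e-05, 2.84e-05, 3.91e-05 and 6.07e-05). Both genes followed the same order in fresh hepatocytes, lowest in replicate 1 and highest in replicate 2.

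That order was also the order of the leukocyte markers. The sum of 12 of them, of which Itgam was at 0 in all libraries, was 40.7, 399 and 161 CPM in fresh hepatocytes, with 7, 9 and 7 of the 12 above 3 counts, and Clec4f, which defines Kupffer cells, had 18.9, 127 and 74.9 CPM there and 0 in the other 24 libraries. In HepOrgs the sum was 18.6 to 20.3 CPM in HM-Wnt at 1 week, 20.2 to 51.7 at 2 weeks, 21.9 to 71.9 in MM at 1 week, and 7.84, 29.5 and 749 in MM at 2 weeks. The last of these, MM replicate 3, had 696 CPM of Lyz2, with 7 of the 12 markers above 3 counts. Its Cd74 was 3.11 and its H2-Aa 0.084 CPM, the highest of the 12 HepOrg libraries for both genes and below every fresh hepatocyte library. Cd68 alone held 6.37 to 44 CPM of the sum in HepOrgs, against 1.52, 8.14 and 4.04 CPM in fresh hepatocytes. In HM-Wnt at 1 week Cd68 had 16.1, 17.7 and 18.8 CPM, and 9 of the 12 markers had at most 3 counts. Endothelial markers summed to 53.9, 240 and 209 CPM in fresh hepatocytes and to at most 2.33 in HepOrgs. Markers of mesenchyme (21.9, 146 and 98.6 CPM) and cholangiocytes (11.8, 139 and 30 CPM) had the same order in fresh hepatocytes, so it was not particular to leukocytes. Hepatocyte markers did not follow it (83800, 92900 and 64400 CPM). The part of these cells in the class II values was not tested, and in bulk samples fewer cells of a type cannot be told apart from less RNA per cell.

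H2-Eb1, the I-E β chain, was past the threshold in all 4 comparisons through a single library, since fresh hepatocytes had 0.244, 30.9 and 0.274 CPM and HepOrgs 0.138 to 0.708. Without replicate 2 of the fresh hepatocytes the log2 fold changes of −4.33, −5.59, −5.47 and −4.88 became 1.03, −0.22, −0.1 and 0.49, and none was past the threshold. H2-Ab1, the I-A β chain (chr17:34476663-34488393), behaved unlike the other class II genes. It had 6.14, 71.9 and 33.2 CPM in fresh hepatocytes. In HM-Wnt it had 25.4, 47.7 and 49.1 CPM at 1 week, then 54.8, 49.4 and 41.3 at 2 weeks, and was not past the threshold against fresh hepatocytes. These are libraries in which H2-Aa, which encodes its partner chain, was at or near 0.

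**Figure D3:**
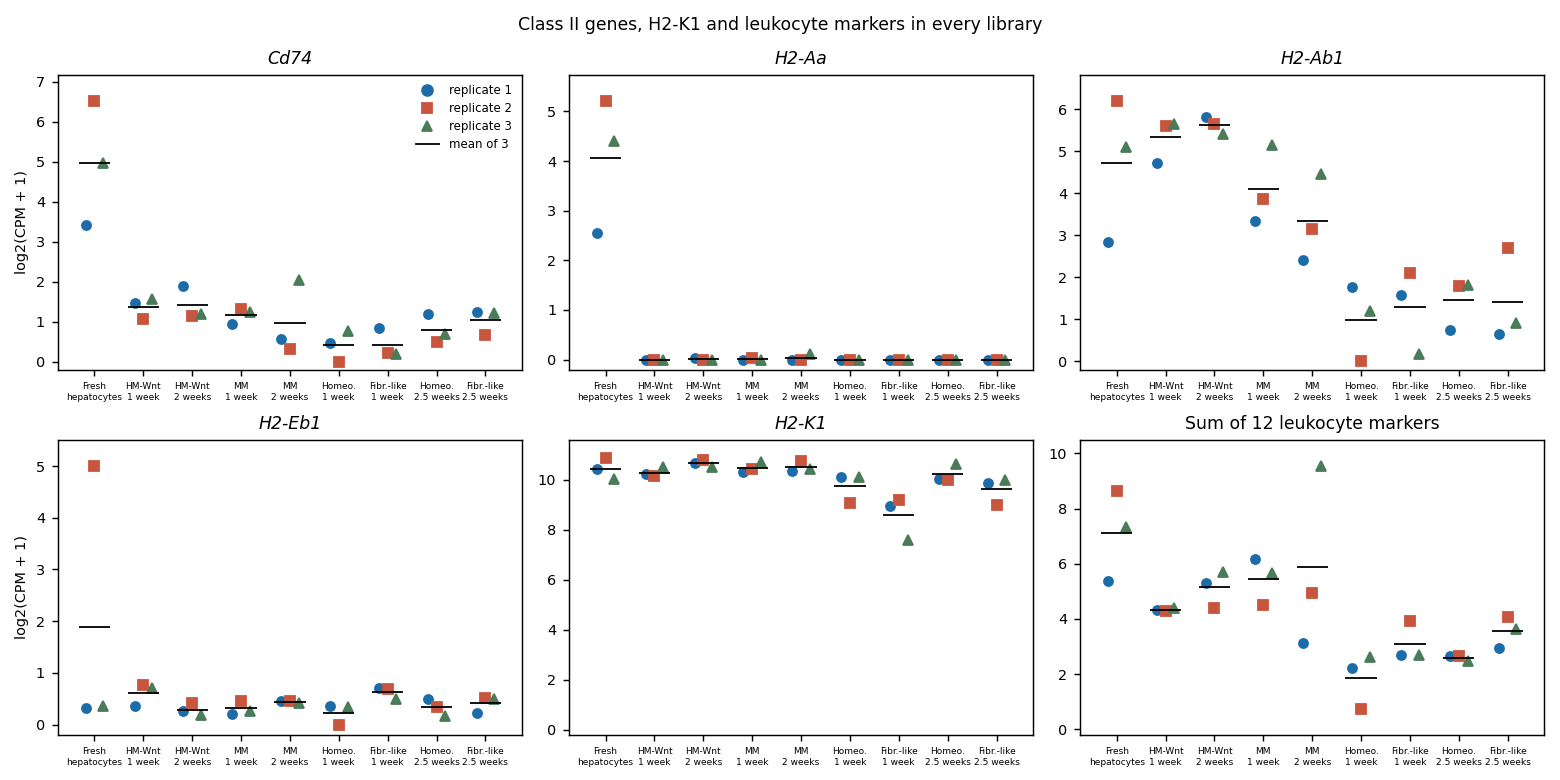
Level of 4 class II genes, of the class I gene H2-K1 and of the sum of 12 leukocyte markers in all 27 libraries, as log2(CPM + 1) on the vertical axis, with 1 symbol per replicate and a bar for the mean of 3. Cd74 and H2-Aa fall together outside fresh hepatocytes, whereas H2-Ab1 remains high in HM-Wnt HepOrgs and is low in assembloids.

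Replicate 1 of HM-Wnt HepOrgs at 2 weeks had the highest level among the 12 HepOrg libraries for 21 of the 41 members with a count, whereas this held for 4.99% of 17571 genes. Among all 27 libraries it was highest for 17 members, against 2.15% of genes. Ifit1, which binds viral RNA lacking a host cap, had 193 CPM there and 4.65 to 32.1 in the other 11 HepOrg libraries. Ifit2 had 71.6, Ifit3 48, Rsad2, the antiviral enzyme viperin, 95.5, and Mx1 8.84 CPM. For each of these genes MM replicate 3 at 1 week was the next highest HepOrg library. Its Ifit1, Ifit2, Ifit3, Rsad2 and Mx1 were at 32.1, 8.38, 9.12, 10.6 and 0.64 CPM. The medians of the 11 libraries were 7.41, 3.11, 1.45, 1.7 and 0.0541 CPM. Of 37 members with a median above 0.1 CPM in the other 11 libraries, 17 were over 2 times that median and 11 over 4 times, against 4.36% and 0.627% of 13238 genes.

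The rise in that library was uneven between roles. By the same 2-fold measure it reached 7 of 8 genes of RNA binding and sensing, both Isg15 (18.3 CPM) and Usp18, and 3 of 3 GTPases measured. It also reached 2 of 4 antiviral effectors, 1 of 3 other interferon-induced genes, and 2 of 3 class II genes, Cd74 and H2-Ab1. It reached 0 of 5 regulators and 0 of 9 genes of the immunoproteasome, peptide loading and class I. Of these, Irf7 (118 CPM), Tap1 (58.2) and Tapbp (289) were still at their highest HepOrg level there, at 1.99, 1.81 and 1.23 times the median of the other HepOrg libraries. Of 64 further genes of the pathway, 11 were over 2 times and 2 over 4 times the median of the other libraries, among them Cmpk2, a kinase encoded beside Rsad2, at 133 CPM (chosen after its values were seen). The interferon genes searched, Ifna1, Ifna2, Ifna4, Ifnb1, Ifng, Ifnk, Ifnl2 and Ifnl3, had 0 counts in that library and at most 8 in any. Ifnk is overlapped over its whole span by Mob3b, so its 0 has the same limit as that of B2m.

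Several of the rises at 2 weeks in HM-Wnt rested on this library. With it, Ifit1 (3.93 ± 1.03), Ifit2 (3.6 ± 1.16), Rsad2 (3.39 ± 1.26) and Isg15 (1.9 ± 0.67) were past the threshold on the log2 scale (edgeR adjusted p = 0.00631, 0.0188, 0.0368 and 0.0298). Without it their log2 fold changes were 1.06, 0.64, 0.14 and 0.44 and none was past it. Usp18 (2.15), Oas1a (3.16), Oas2 (2.73) and Ifi44 (1.99) remained past the threshold without it, and 4 members were then higher and 8 lower (44.2% of all genes). Leaving out the HepOrg library with the highest level of a gene lowers its fold change by itself, so the balance of these calls is no added support for falls.

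**Figure D4:**
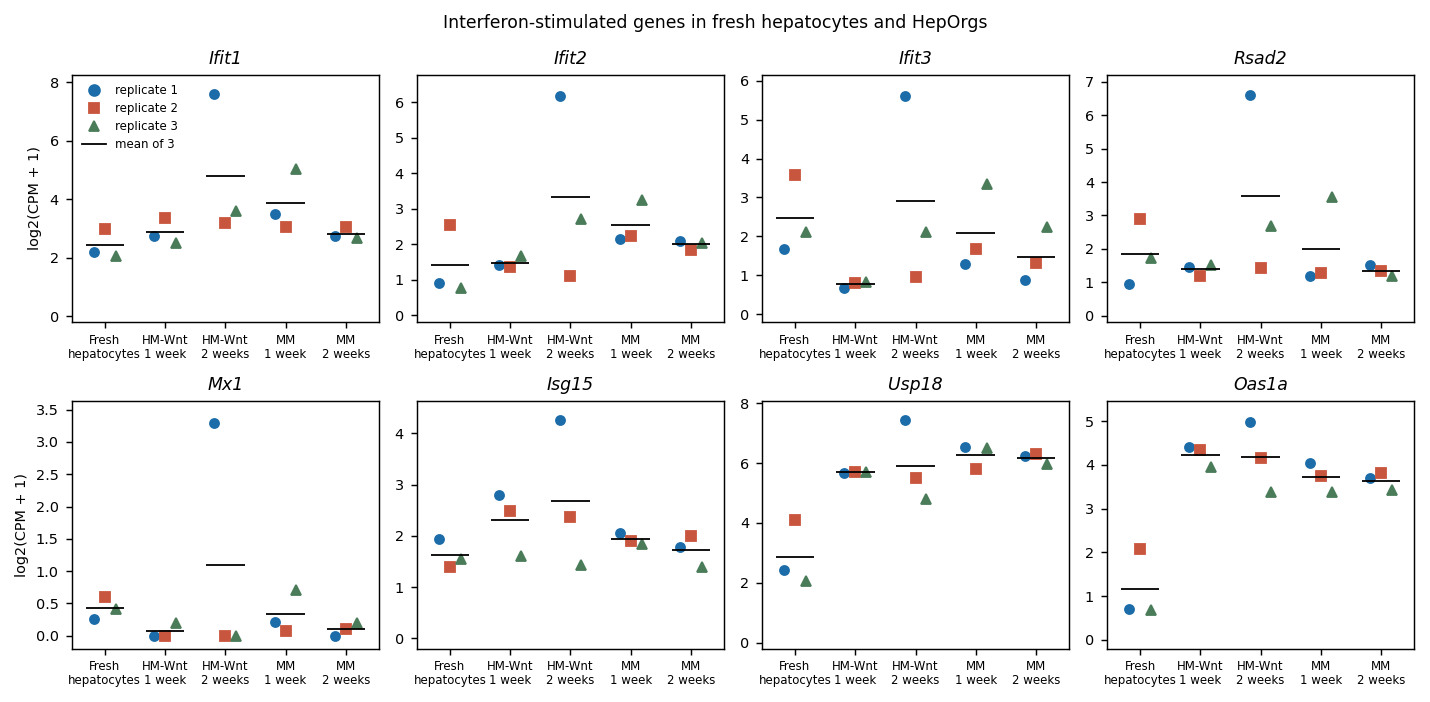
Level of 8 interferon-induced members in fresh hepatocytes and HepOrgs, as log2(CPM + 1) on the vertical axis, with 1 symbol per replicate and a bar for the mean of 3 libraries per condition. Ifit1, Ifit2, Ifit3, Rsad2 and Mx1 are set by replicate 1 of HM-Wnt at 2 weeks, while Usp18 and Oas1a lie above fresh hepatocytes in every HepOrg library.

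The media were compared next, in a fit of the 12 HepOrg libraries, to see whether moving HepOrgs to MM altered the module. At 1 week 0 of 37 members tested were past the threshold with edgeR (2.98% of all genes were), 4 had an unadjusted p under 0.05, and DESeq2 called 1, Nlrc5, and limma 0. At that time 9 of the 37 were higher in every MM library than in every HM-Wnt library (12.9% of all genes) and 1 lower (12.2%). At 2 weeks 2 members were lower in MM than in HM-Wnt (11.5% of all genes were past the threshold, 6.84% higher and 4.61% lower). H2-Ab1 had 4.31, 7.88 and 21 CPM in MM and 54.8, 49.4 and 41.3 in HM-Wnt, without overlap (log2 fold change −2.12 ± 0.58, edgeR adjusted p = 0.0374). Oas2 had 1.52, 3.61 and 1.18 CPM against 18.9, 7.62 and 4.35, also without overlap (−2.27 ± 0.64, edgeR adjusted p = 0.0422). Both calls were lost without HM-Wnt replicate 1 or 2 or MM replicate 1. That of Oas2 was also lost without MM replicate 3, and that of H2-Ab1 without MM replicate 2 or HM-Wnt replicate 3. Their log2 fold changes over these fits were −2.44 to −1.49 for Oas2 and −2.22 to −1.76 for H2-Ab1.

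Replicate numbers paired the HepOrg libraries, as described with the processing, and with the number as a block 4 members were past the threshold at 2 weeks (19.6% of all genes). They were H2-Ab1 (−2.48 ± 0.44, edgeR adjusted p = 0.00384) and Oas2 (−2.05 ± 0.44, edgeR adjusted p = 0.0104), lower in MM, and Psmb10 (0.74 ± 0.18, edgeR adjusted p = 0.017) and Ifitm3 (0.6 ± 0.17, edgeR adjusted p = 0.0364), higher in MM. Ifitm3, which hinders the entry of virus from endosomes, had 762, 838 and 665 CPM in MM against 642, 542 and 352. At 1 week H2-Ab1 was at 9.08, 13.4 and 34.1 CPM in MM and 25.4, 47.7 and 49.1 in HM-Wnt, groups that overlap, and was not past the threshold.

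Whether the effect of the medium differed between the times was tested directly. It did so for 0 of 37 members with edgeR (0% of all genes), with 0 by DESeq2 and 0 by limma and an unadjusted p under 0.05 for 6, among them Ifit1 (−4.85 ± 1.44), Ifit3 (−5.67 ± 1.73) and Rsad2 (−5.86 ± 1.77), all with an edgeR adjusted p of 0.671. Without replicate 1 of HM-Wnt at 2 weeks these 3 values were −1.98, −2.66 and −2.62. Between 2 weeks and 1 week, over both media, 0 of 37 were past the threshold with edgeR (0.0077% of all genes), 0 by DESeq2 and 0 by limma, and the GTPases Gbp2 (1.51 ± 0.69) and Gbp3 (1.41 ± 0.5) were the 2 members with an unadjusted p under 0.05. Without replicate 1 of HM-Wnt at 2 weeks these were 0.45 and 0.71, neither with an unadjusted p under 0.05.

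Assembloids were compared by their share of mesenchyme, the study's model of biliary fibrosis. At 1 week 0 of 37 members tested were past the threshold between fibrotic-like and homeostatic assembloids with edgeR (0% of all genes), 6 had an unadjusted p under 0.05, DESeq2 called 2, Irf7 and Gbp2, and limma 0. Gbp2 had 3.07, 5.9 and 3.12 CPM in fibrotic-like assembloids and 0.822, 0 and 0.773 in homeostatic ones. Irf7 (chr7:140842619-140846398) had 6.43, 8.01 and 4.52 CPM against 45.9, 11.5 and 33.4. Neither pair of groups overlapped, which held for 2 members higher and 5 lower in fibrotic-like assembloids (17.4% and 6.39% of all genes), and the 0 of Gbp2 and the 11.5 of Irf7 came from the homeostatic library that stood apart.

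Without that library 4 members were past the threshold at 1 week (8.01% of all genes). Gbp2 was higher (2.33 ± 0.44, edgeR adjusted p = 0.0408), and Irf7 (−2.66 ± 0.45, edgeR adjusted p = 0.0399), the OAS-like protein Oasl1 (−2.25 ± 0.33, edgeR adjusted p = 0.0394) and Irf9 (−0.92 ± 0.2, edgeR adjusted p = 0.0441) were lower. Without both libraries of 1 week that stood apart the first 3 remained (2.48, −2.46 and −1.96, with 1.91% of all genes past the threshold) and Irf9 did not (−0.79). Oasl1 had 5.63, 4.81 and 2.34 CPM in fibrotic-like assembloids and 21.1, 0 and 19.4 in homeostatic ones.

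At 2.5 weeks 0 of 37 members were past the threshold with edgeR (0% of all genes), none had an unadjusted p under 0.05, and DESeq2 and limma called 0. Gbp2 again separated the groups, at 4.79, 6.58 and 4.93 CPM in fibrotic-like assembloids and 1.19, 0.827 and 0.997 in homeostatic ones, a log2 fold change of 2.42 ± 1.2 (edgeR adjusted p = 0.782). In the fit without the homeostatic library of 1 week that stood apart, which estimates the spread from the other 11 libraries, Gbp2 was past the threshold at the same size (2.42 ± 0.37, edgeR adjusted p = 0.0434, 0.258% of all genes). In all, 5 members were higher and 9 lower without overlap at that time (20.5% and 17.1% of all genes). Irf7 was at 33.1, 31.1 and 31.5 CPM against 44.8, 29.9 and 104 at that time, and the groups overlapped. The difference between the effects at the 2 times was not past the threshold for any member with edgeR (0% of all genes), with an unadjusted p under 0.05 for 0 and with 0 by DESeq2 and 0 by limma. Between 2.5 weeks and 1 week, over both ratios, edgeR, DESeq2 and limma called 0 members (0% of all genes with edgeR), and Irf7 (1.67 ± 0.42) and Rsad2 (2.38 ± 1.04) were the 2 with an unadjusted p under 0.05.

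The groups also differed in the markers of the cells mixed. Mesenchyme markers, 9 in all, summed to 2600, 6460 and 306 CPM in fibrotic-like and 154, 1030 and 323 in homeostatic assembloids at 1 week, and to 1370, 4530 and 5040 against 194, 290 and 240 at 2.5 weeks. Hepatocyte markers summed to 9990, 14400 and 1600 against 28500, 989 and 15000 at 1 week, and to 20800, 6670 and 27000 against 21000, 21000 and 20400 at 2.5 weeks. Cholangiocyte markers summed to 6570 to 10400 CPM over the 12 assembloid libraries, Spp1 included. Krt7 had 374, 83.1 and 2340 CPM in fibrotic-like against 18, 3030 and 171 in homeostatic assembloids at 1 week. At 2.5 weeks it had 242, 960 and 321 against 76.7, 31.3 and 31.4. Krt19 had 1520 and 932 CPM in the homeostatic and fibrotic-like libraries of 1 week that stood apart, and 1630 in fibrotic-like replicate 2 at 2.5 weeks. Leukocyte markers stayed at 0.655 to 15.7 CPM over the 12 assembloid libraries, with Clec4f at 0 in each. The part of cell composition in the values of Gbp2, Irf7 and the other members was not tested.

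**Figure D5:**
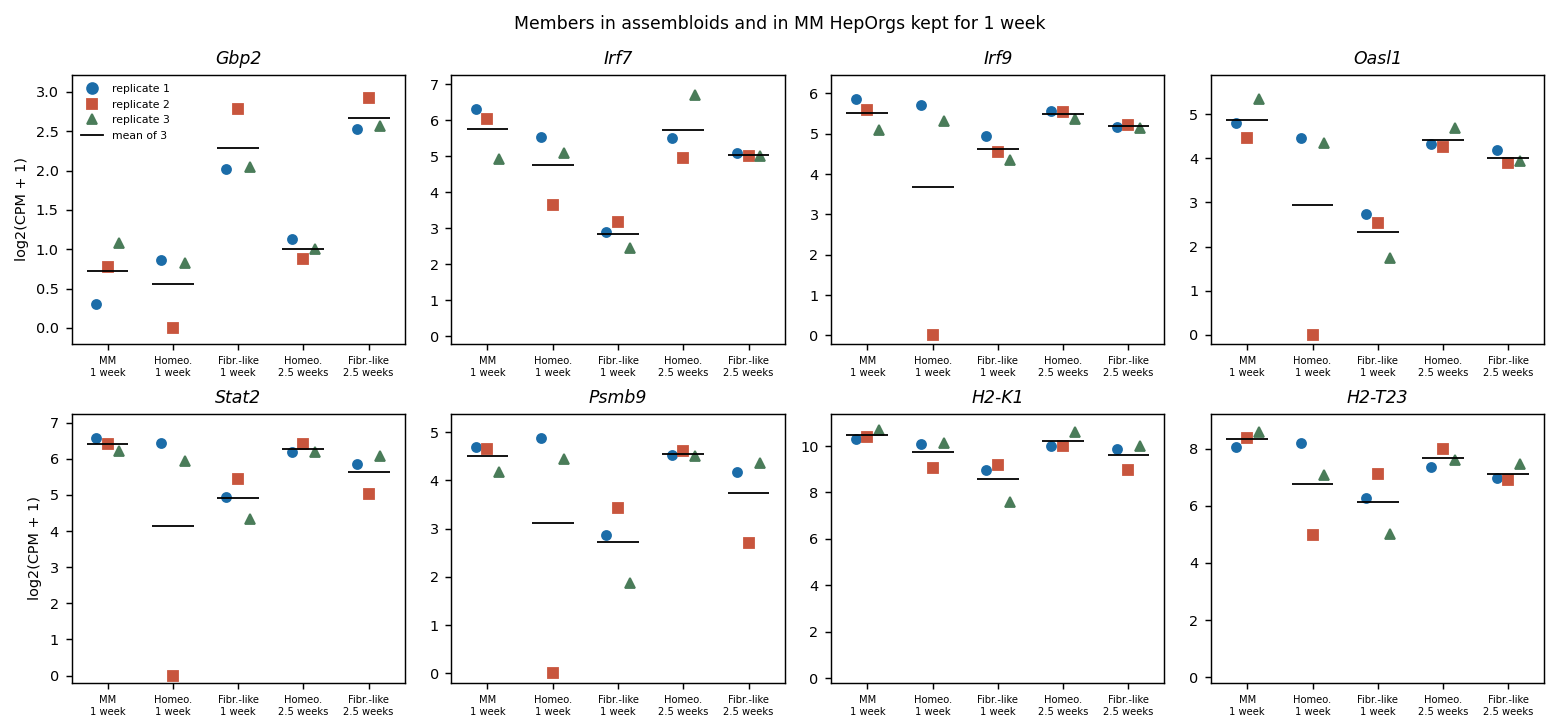
Level of 8 members in MM HepOrgs at 1 week and in the 4 assembloid conditions, as log2(CPM + 1) on the vertical axis, with 1 symbol per replicate and a bar for the mean of 3. Gbp2 is higher in fibrotic-like than in homeostatic assembloids at both times, Irf7 and Oasl1 are lowest in fibrotic-like assembloids at 1 week, and replicate 2 of homeostatic assembloids at 1 week is at 0 for 5 of the 8 genes.

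Assembloids kept for 1 week in MM were lastly set against MM HepOrgs of the same time, to which no cholangiocytes or mesenchymal cells had been added. These HepOrgs were not free of mesenchyme markers, which summed to 271, 107 and 110 CPM, against 154, 1030 and 323 in homeostatic assembloids. With edgeR 0 of 38 members were past the threshold in homeostatic assembloids (0% of all genes), 0 had an unadjusted p under 0.05, and DESeq2 and limma called 0. Without overlap, 14 were lower in every homeostatic library (12.8% of all genes) and 0 higher (5.34%). The homeostatic library that stood apart, with 30 members at 0, is among these libraries. It favours the first count and hinders the second, so neither is read as a fall, and they were not made without it. Without that library edgeR again called 0 members (0% of all genes). In fibrotic-like assembloids 0 of 38 were past the threshold (0% of all genes), 5 had an unadjusted p under 0.05, DESeq2 called 1, Irf7, and limma 0. Yet 24 of the 38 members were lower in every fibrotic-like library than in every MM HepOrg library, against 23.9% of all genes, and 3, Gbp2, Gbp3 and H2-Eb1, were higher in every one, against 26.4%. The median log2 fold change was −1.28 over the members and 0.09 over all genes.

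Without the homeostatic library that stood apart, 15 members were past the threshold in this comparison (23% of all genes, 12.6% higher and 10.3% lower). Gbp2 was higher (2.54 ± 0.62, edgeR adjusted p = 0.0282) and 14 were lower. They spanned the module, from the regulators Irf7 (−3.2 ± 0.41, edgeR adjusted p = 0.0104), Stat2 (−1.47) and Irf9 (−0.95), through Ifih1 (−0.91), Isg15 (−1.8), Ifit1 (−2.37), Oasl1 (−2.78), Mx2 (−2.37) and Ifi44 (−1.41), to the presentation genes Psmb9 (−1.82), Tapbp (−0.95), H2-K1 (−1.75), H2-T23 (−2) and H2-Ab1 (−3.4). Irf7 had 78.9, 64.8 and 29.6 CPM in MM HepOrgs and H2-K1 1250, 1350 and 1650, against 494, 578 and 193 for H2-K1 in fibrotic-like assembloids, with no overlap for either gene. Without both libraries of 1 week that stood apart 16 were past the threshold, 1 higher and 15 lower (22.2% of all genes). Hepatocyte markers summed to 25900, 27800 and 11800 CPM in MM HepOrgs and, as above, to 9990, 14400 and 1600 in fibrotic-like assembloids.

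The wider pathway was read from 79 further genes in 7 lists, whose members were named by a fixed rule as the largest changes past the threshold. Of the 17 interferons and receptors, 8 had enough counts to be tested, and against fresh hepatocytes 4 were higher and 2 lower in HM-Wnt at 1 week, 4 and 1 at 2 weeks, 4 and 0 in MM at 1 week, and 5 and 1 at 2 weeks. Beside these and the list counts that follow, the shares of all genes higher and lower were 24.9% and 24.8%, 26.1% and 25.7%, 21.5% and 21.3%, and 19.7% and 20%, in the same order. Ifnlr1, the receptor chain particular to type III interferon, had 0, 0.0426 and 0.0304 CPM in fresh hepatocytes and 3.57 to 6.14 in HepOrgs, at least 49.9-fold, 52.6-fold, 56.2-fold and 50.4-fold higher in the 4 comparisons. Ifngr1, the ligand-binding chain of the interferon-γ receptor, had 31, 30.3 and 28.6 CPM in fresh hepatocytes and 102 to 334 in HepOrgs. In MM its log2 fold change against fresh hepatocytes was 2.66 ± 0.23 at 1 week and 2.18 ± 0.23 at 2 weeks (edgeR adjusted p = 1.99e-06 and 9.78e-06), and at 2 weeks it was lower in MM than in HM-Wnt (−1.15 ± 0.23, edgeR adjusted p = 0.0109).

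Genes that act downstream were called in both directions, as were all genes. Of the 22 further interferon-induced genes tested, 3 were higher and 10 lower in HM-Wnt at 1 week, 5 and 5 at 2 weeks, 4 and 2 in MM at 1 week, and 4 and 3 at 2 weeks. Sp100, a nuclear body protein, was lower in HM-Wnt at both times (−5.44 ± 1.2 and −4.57 ± 1.12, edgeR adjusted p = 0.0022 and 0.00402). Of the 11 sensors and adaptors, 2 were higher and 2 lower at 1 week in either medium and at 2 weeks in MM, and 4 and 2 at 2 weeks in HM-Wnt. Of the 3 inhibitors, 1 was higher and 1 lower in all but MM at 2 weeks, where 0 were higher and 1 lower. Zbp1, a sensor of Z-form nucleic acid, was higher in MM at 2 weeks (1.96 ± 0.52, edgeR adjusted p = 0.00852).

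Counts of presentation genes are given beside the same shares. Of 12 other class I and peptide-loading genes tested, 3 were higher and 3 lower in HM-Wnt at 1 week, 5 and 3 at 2 weeks, 3 and 2 in MM at 1 week, and 2 and 1 at 2 weeks. H2-Q4, a non-classical class I gene, was lower in all 4 (−3.84, −3.88, −3.54 and −3.58), on fresh hepatocyte levels of 33.5, 1.53 and 26.7 CPM and HepOrg levels of 1.25 to 2.3, so that replicate 2 lay within the HepOrgs. Of 6 other class II genes tested, 2, 2, 1 and 0 were lower and none higher. Ctss, the protease that trims the invariant chain, had 5.73, 52 and 18.5 CPM in fresh hepatocytes, at most 0.661 in HM-Wnt HepOrgs (−7.71 ± 2.17 and −6.56 ± 1.98, edgeR adjusted p = 0.00982 and 0.0137) and 49.4 CPM in MM replicate 3 at 2 weeks, the library with 696 CPM of Lyz2. Of the 3 constitutive proteasome subunits, 0 were higher and 1 lower at both times in HM-Wnt, and 1 higher and 1 lower at both times in MM. Between the media, Rfxank, a subunit of the factor that binds class II promoters, was higher in MM at 1 week (0.84 ± 0.18, edgeR adjusted p = 0.036) and at 2 weeks (1.13 ± 0.18, edgeR adjusted p = 0.00393), while H2-Ab1 was lower there at 2 weeks.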

How the data were processed

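The members and lists were chosen with earlier results of these data known, and the promoters shown were picked after values were seen. Per the study's methods, SMARTseq2 libraries were aligned to GRCm39 with STAR and assigned to genes with featureCounts. The authors deposited whole-number counts and TPM values per gene; the counts were used as deposited, and TPM only in an alternative. The gene length in that table is within 5% of the whole gene span for 80.4% of genes. Of 37 libraries, 27 were mapped by their labels and 10 were not used, and 2 reporter rows were left out.

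Counts were analysed with edgeR 4.0.16 in R 4.3.3 (TMM, filterByExpr, quasi-likelihood test, 1 mean per group, Benjamini-Hochberg adjustment over all genes tested, threshold 0.05), in fits of 15 libraries with fresh hepatocytes (13396 genes), 12 HepOrg libraries (12989), 12 assembloid libraries (14253) and 9 libraries of 1 week in MM (13733). Scripts were tested on simulated data. The interval of a single value is its standard error, and at these depths 3 counts were taken as the limit of detection. The genes named are the members, and up to 4 genes per comparison from other lists with the largest change past the threshold, beside cell type markers.

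Alternatives were RLE size factors, DESeq2 1.42.0, limma 3.58.1 on log2(TPM + 1), a joint fit of all 27 libraries, no filter on low counts, a block for the replicate number, and each library left out in turn. Leaving out both 1 week libraries that stood apart, and the homeostatic one in further comparisons, was added after seeing the data. Deviations of same-numbered libraries correlated above 0.1 in 18 of 18 HepOrg pairs (0.127 to 0.503, median 0.207; 2 of 36 pairs with different numbers), so replicate numbers pair these libraries. In the fits with fresh hepatocytes (19 of 30), of assembloids (6 of 18) and of 1 week in MM (2 of 9) they were taken not to.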

Additional observations from a re-analysis of the deposited data

How the results depend on the processing

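Against fresh hepatocytes, the 14, 13, 6 and 8 members past the threshold (HM-Wnt at 1 and 2 weeks, MM at 1 and 2 weeks) ranged from 10 to 16, 10 to 17, 6 to 12 and 6 to 13 when 1 library was left out. All 27 libraries in 1 fit gave 8, 8, 4 and 3. DESeq2 gave 10 for MM at 1 week, and the replicate block, on libraries that share only a number here, gave 15 and 13 in MM. limma on log2(TPM + 1) gave 22, 19 and 17 in all but the first comparison, where it gave 14, with 12 of 14, 20 of 22, 17 of 19 and 15 of 17 higher; the median of all genes on that scale was 0.4, 0.68, 0.47 and 0.4, against about 0 with TMM. H2-Eb1 reversed without fresh hepatocyte replicate 2, and with 1 library left out it ranged from -4.89 to 1.03 in HM-Wnt at 1 week and from -5.43 to 0.49 in MM at 2 weeks.

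For MM against HM-Wnt at 1 week, DESeq2 gave 1 and leaving out a library 0 to 1. At 2 weeks, DESeq2 gave 5, no filter on low counts 4, the replicate block 4, all 27 libraries 0 and leaving out a library 0 to 3. For fibrotic-like against homeostatic assembloids at 1 week, DESeq2 gave 2, all 27 libraries 1, the fit without both libraries that stood apart 3, and leaving out a library 0 to 4. At 2.5 weeks the fit without both gave 1 and leaving out a library 0 to 1. For fibrotic-like assembloids against MM HepOrgs, DESeq2 gave 1, all 27 libraries 3, the fit without both 16, and leaving out a library 0 to 15. The replicate block changed no other call on libraries that it pairs. Of 43 values past the threshold, 17 stayed past it in every alternative that gave one, among them Cd74 and H2-Aa in each comparison, Oas1a and Oas2 in HM-Wnt, and Ifi44 in all but MM at 2 weeks. Usp18 lost its call in 1 alternative in each comparison with fresh hepatocytes, and Oas1a in 1 in each MM comparison, in no case by leaving out a library. The cause of these differences was not tested.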

Other observations

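Fresh hepatocyte replicate 2 differed from replicates 1 and 3 at several class I loci that lie close together and are near copies of one another (chosen after their values were seen). H2-Q4 had 33.5, 1.53 and 26.7 CPM in replicates 1, 2 and 3, and H2-Q7 3.97, 46.2 and 2.86. In HepOrgs H2-Q4 was at 1.25 to 2.3 CPM and H2-Q7 at 46.5 to 121, so that replicate 2 lay with the HepOrgs for the first gene and near them for the second. H2-T23 (103, 363 and 102 CPM) and Bst2 (53.6, 233 and 37.2 CPM) were split in the same way.

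Bst2 was also split within conditions of assembloids. It had 48.2, 57.4 and 266 CPM in homeostatic assembloids at 1 week, 33.9, 110 and 49.3 in fibrotic-like ones, 55.9, 263 and 475 in homeostatic assembloids at 2.5 weeks, and 54, 56 and 192 in fibrotic-like ones, while the 12 HepOrg libraries lay between 166 and 326. No group of assembloids was past the threshold for Bst2 in a comparison with another group.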
